A study of Macaca fascicularis with 2 samples.

Results

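The 9 genes described here are the 3 peroxisome proliferator-activated receptors (PPARA, PPARD and PPARG), their partner retinoid X receptor alpha (RXRA) and 5 genes known as their targets (UCP2, UCP3, ANGPTL4, TXNIP and ACOT2). They were chosen by name, with earlier results of these data known, from the 28175 genes that the files hold. All 9 had a count in both libraries. RNA was sequenced from the gastrocnemius, a calf muscle, of Macaca fascicularis, the cynomolgus macaque, in 1 library labelled non-lean, from a high fat diet, and 1 library labelled lean, from a chow diet. The design text asks how gene expression differs between obese and lean muscle. The labels give no age and no number of animals, and with 1 library per group no difference below has a replicate check.

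PPARs are nuclear receptors that bind fatty acids and their derivatives. Each pairs with a retinoid X receptor on DNA and switches on genes for taking up, burning or storing fat. PPARD is the form best known from muscle fibres, PPARA from liver and other tissues that burn fat, and PPARG from fat cells, where it drives adipocyte formation.

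The non-lean library held 12731974 counts and the lean library 15983348. Levels are CPM, counts scaled to a common library size, here with the trimmed mean of M-values (TMM). That method takes 1 factor per library and assumes that most genes do not differ between libraries. Ratios are log2 of non-lean over lean, with a 95% interval in brackets that covers counting error only, as each group has 1 library. PCR reads are not independent molecules, so the interval can be too narrow even for counting error. A gene is called tested when its CPM averaged 1 or more over both libraries, which held for 13707 genes, and their median log2 ratio was -0.01 with quartiles of -0.39 and 0.34. A gene counts as 2-fold higher or lower when it is at least 2-fold apart and its interval excludes 0. By that rule 673 tested genes (4.91%) were higher in the non-lean library and 982 (7.16%) lower. Scaling by total counts turned this split to 931 higher and 732 lower, because it moved the median of tested genes up by 0.14. CPM values are not divided by transcript length, so ratios are compared between libraries for 1 gene. Where genes are called abundant, summed or given as shares, this goes by counts, which also rise with transcript length. The libraries carried muscle genes, with skeletal actin (ACTA1) at 804023 counts in the non-lean and 1223115 in the lean library.

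All 4 receptor genes had lower values in the non-lean library, RXRA by more than 2-fold. Among the 5 targets the values split, as TXNIP and ACOT2 were lower, UCP2 and UCP3 were nearly level, and ANGPTL4 was close to the detection limit. Intervals lay below 0 for 6 of the 8 tested genes, against 28.8% of all tested genes, and above 0 for none of the 8, against 25.8%. The median log2 ratio of the 8 was -0.74. With total counts the interval of PPARA held 0 and those of UCP2 and UCP3 lay above 0, so that 5 intervals lay below and 2 above. In bulk muscle, fewer cells of a type and less RNA per cell cannot be told apart.

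**Figure D1:**
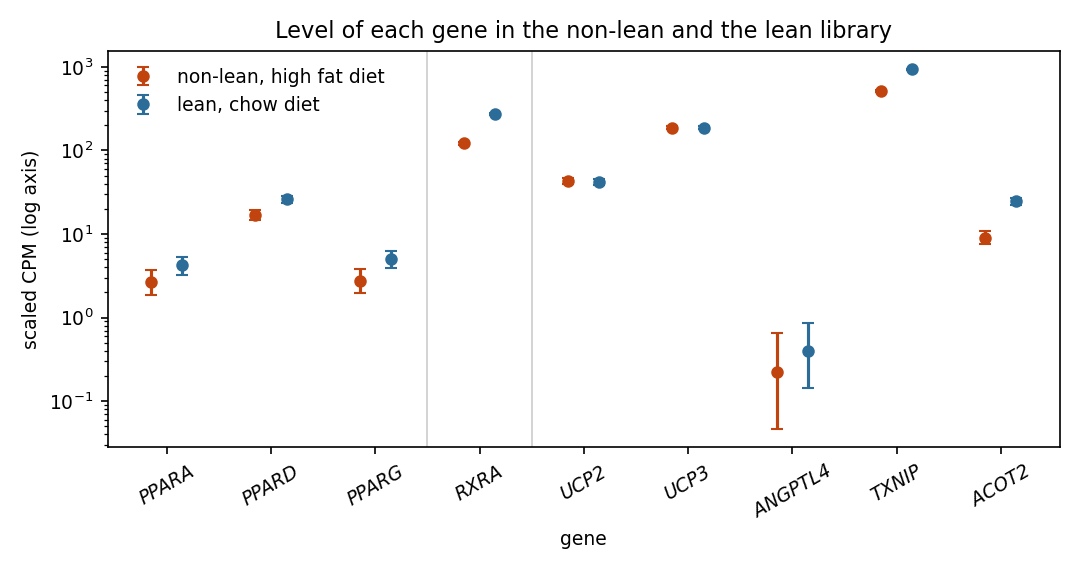
Scaled CPM of the 9 genes on a log axis, non-lean library left and lean library right for each gene, with exact 95% Poisson counting intervals. Vertical lines part the receptors, RXRA and the targets; RXRA lies at 122 CPM in the non-lean and 275 CPM in the lean library, whereas the points of UCP3 lie side by side at 188 and 187 CPM.

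PPARD had 228 counts in the non-lean and 395 in the lean library, or 17.1 and 26.0 CPM. In the non-lean library it was thus 1.52-fold lower, with a log2 ratio of -0.60 [-0.85, -0.37]. Of the 7 transcript models of PPARD in the files, 1 carried 99.4% of the estimated counts in the non-lean library (exact binomial interval 97.6 to 99.99) and 89.1% in the lean library (85.6 to 92.0). A further model had 0 estimated counts in the non-lean and 40.9 in the lean library, so part of the gene's difference was assigned to that model. Such estimates depend on how shared reads were divided among models. The intervals of model shares and of single models, here and below, do not cover that division. The leading model alone gave a log2 ratio of -0.45 [-0.69, -0.20].

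PPARA had 36 counts in the non-lean and 64 in the lean library, or 2.69 and 4.21 CPM. Its log2 ratio was -0.63 [-1.27, -0.03], 1.55-fold lower, with an upper bound next to 0. That bound passed 0 with total counts, at -0.49 [-1.13, 0.11], and with upper-quartile scaling, at -0.59 [-1.23, 0.01]. The lower value came from 1 of its 4 transcript models, which had 0 estimated counts in the non-lean and 24.8 in the lean library. The leading model had 32.1 in the non-lean and 34.9 in the lean library, a log2 ratio of 0.06 [-0.68, 0.79]. The difference of PPARA thus lay in a model whose estimated counts depend on how shared reads were divided.

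PPARG had 37 counts in the non-lean and 76 in the lean library, or 2.77 and 4.99 CPM. In the non-lean library it was 1.79-fold lower, at a log2 ratio of -0.84 [-1.46, -0.27]. Of its 8 models, 1 held all 37.0 estimated counts in the non-lean and 72.2 in the lean library. Markers of adipocytes, in which PPARG is best known, went both ways. Of 12 tested adipocyte markers, 7 had intervals below 0, 3 above and 2 that held 0. The summed level of the adipocyte list was 1186 CPM in the non-lean and 1176 CPM in the lean library, most of it from GPD1 and PLIN4. Among those below were adiponectin (ADIPOQ), with 3 counts in the non-lean and 46 in the lean library, and the fat droplet coat gene PLIN1, with 23 and 166. ADIPOQ, CIDEC, CIDEA and TRARG1, all among those below, passed the minimum through the lean library alone. Those above were AQP7 at 0.91, FABP4 at 0.26 and PLIN4 at 0.08, and CFD and GPD1 were at 0.00 and 0.03 with intervals that held 0. Of 12 tested macrophage markers, 9 had intervals below 0 and none above, and the list summed to 40.9 CPM in the non-lean and 136 CPM in the lean library. No matched gene of these lists was at 0 in either library. The part of these cells in the PPARG value was not tested.

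The share of each receptor in the summed PPAR counts can be compared without scaling. PPARD took 75.7% of the summed PPAR counts in the non-lean library (70.5 to 80.5) and 73.8% in the lean library (69.9 to 77.5). PPARA took 11.96% in the non-lean (8.52 to 16.2) and 11.96% in the lean library (9.34 to 15.02). PPARG took 12.3% in the non-lean (8.80 to 16.5) and 14.2% in the lean library (11.4 to 17.5). Each pair of intervals overlapped, on 301 counts in the non-lean and 535 in the lean library, so no shift among the 3 receptors was detectable at this depth.

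RXRA, a retinoid X receptor that PPARs can pair with on DNA, had 1629 counts in the non-lean and 4185 in the lean library. That is 122 CPM in the non-lean and 275 CPM in the lean library, 2.26-fold lower, with a log2 ratio of -1.17 [-1.26, -1.09]. A lower ratio than that of RXRA was found for 692 of the 13707 tested genes. All of its counts lay in a single transcript model. It stayed at least 2-fold lower under every scaling tried, from -1.21 with DESeq2 size factors to -1.03 with total counts.

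The other retinoid X receptors differed less. RXRG, the form enriched in skeletal muscle, had 2885 counts in the non-lean and 3907 in the lean library, a log2 ratio of -0.25 [-0.32, -0.18]. RXRB, which is expressed widely, had 397 and 599 counts, at -0.41 [-0.59, -0.22]. RXRA accordingly took 33.2% of the summed retinoid X receptor counts in the non-lean library (31.9 to 34.5) and 48.2% in the lean library (47.1 to 49.2). RXRG took 58.7% in the non-lean (57.4 to 60.1) and 45.0% in the lean library (43.9 to 46.0). These intervals did not overlap, and the shares do not depend on scaling.

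**Figure D2:**
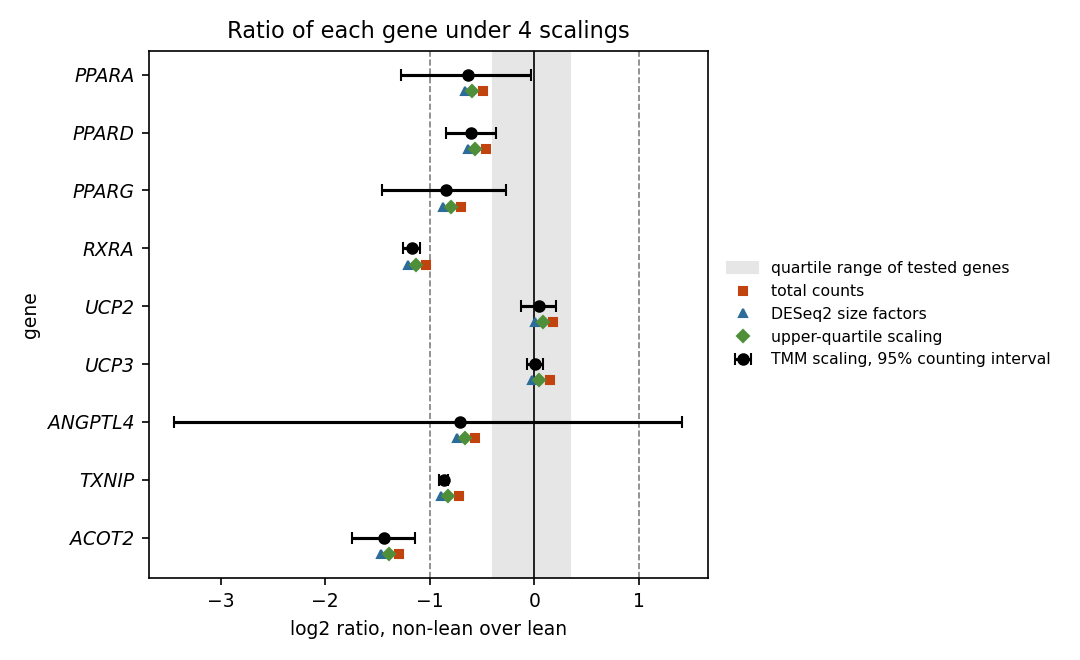
Log2 ratio of non-lean over lean for the 9 genes. Black points show the trimmed mean scaling with 95% counting intervals, coloured points the other scalings without intervals, the grey band the range between the quartiles of tested genes and dashed lines a 2-fold difference; RXRA and ACOT2 lie beyond the 2-fold line under all 4 scalings, and the points of UCP2 and UCP3 lie within the band.

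UCP3 encodes a carrier of the inner mitochondrial membrane that is most abundant in skeletal muscle and known to rise when fatty acid supply rises. It had 2512 counts in the non-lean and 2848 in the lean library, or 188 and 187 CPM. The log2 ratio was 0.01 [-0.07, 0.08], so that a difference of 2-fold lay far outside its counting interval. With total counts it was 0.15 [0.07, 0.22], close to the 0.14 by which that scaling moved the median of tested genes. Its 3 transcript models kept their order, and the leading one took 93.2% in the non-lean (92.1 to 94.1) and 92.9% in the lean library (91.8 to 93.8).

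UCP2 is the widely expressed relative of UCP3 and its neighbour in the RefSeq gene order. It had 579 counts in the non-lean and 641 in the lean library, 43.3 and 42.1 CPM, with a log2 ratio of 0.04 [-0.12, 0.20]. UCP2 took 18.7% of the counts of this pair in the non-lean library (17.4 to 20.2) and 18.4% in the lean library (17.1 to 19.7). The brown fat gene UCP1 had 1 count in the non-lean and 0 in the lean library. Of the 5 tested genes in the uncoupling protein list, 1 interval lay above 0 and 1 below. SLC25A27 was higher at 0.74 [0.47, 1.02] and SLC25A30 lower at -0.87 [-1.01, -0.73]. UCP2 and UCP3 joined the intervals above 0 with total counts, which made 3.

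TXNIP encodes an arrestin-domain protein that binds thioredoxin and restrains glucose uptake. It is also a main target of the glucose-sensing factor MLXIP (MondoA). It had 6847 counts in the non-lean and 14195 in the lean library, or 512 and 933 CPM. Its level in the non-lean library was lower by 1.82-fold, at a log2 ratio of -0.87 [-0.91, -0.82], just short of 2-fold. It had 1 transcript model, and 1295 of the tested genes had a lower ratio.

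MLXIP was lower as well, with 1828 counts in the non-lean and 3586 in the lean library and a log2 ratio of -0.79 [-0.87, -0.70]. MLXIPL (ChREBP), the related factor best known from liver, was higher at 0.88 [0.65, 1.11]. ARRDC4, a close relative of TXNIP among the arrestin-domain genes and another MondoA target, had 150 counts in the non-lean and 229 in the lean library, at -0.42 [-0.73, -0.12]. ARRDC4 made up 2.14% of the counts of this pair in the non-lean (1.82 to 2.51) and 1.59% in the lean library (1.39 to 1.81). ARRDC2 was 2.74-fold lower and NEDD4L, a ubiquitin ligase, 2.54-fold lower, while ARRDC1 was higher at 0.84 [0.61, 1.09]. Across the 17 tested genes of the thioredoxin and arrestin-domain list, 6 intervals lay below 0 and 4 above, with a median of -0.01. With total counts 5 lay below and 8 above. The interval of ARRDC4 then held 0, as its upper bound of -0.12 was nearer 0 than the 0.14 shift of that scaling.

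ACOT2 encodes a mitochondrial thioesterase that splits long-chain acyl-CoA into free fatty acid and coenzyme A. It had 121 counts in the non-lean and 373 in the lean library, or 9.05 and 24.5 CPM. In the non-lean library it was lower by 2.701-fold, at a log2 ratio of -1.43 [-1.75, -1.14], and 441 of the tested genes had a lower ratio. At no scaling tried did it come within 2-fold.

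The counts of ACOT2 came from different transcript models in each library. The model NM_001290516.1 had 0 estimated counts in the non-lean and 303.7 in the lean library, 81.4% of the gene there (77.2 to 85.3). In turn XM_015453246.1 had 108.1 in the non-lean, 89.4% of the gene (82.3 to 94.2), and 0 in the lean library. Only NM_001283932.1 had counts in both, 12.8 in the non-lean and 69.4 in the lean library. In the RefSeq gene table ACOT2 overlaps 3 other genes, among them 1 protein-coding gene with a placeholder name. The close paralog ACOT1 was not matched by symbol and is not analysed here. How reads were divided among the models and any near-identical copies bears directly on these values, and the ACOT2 total is uncertain for that reason.

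**Figure D3:**
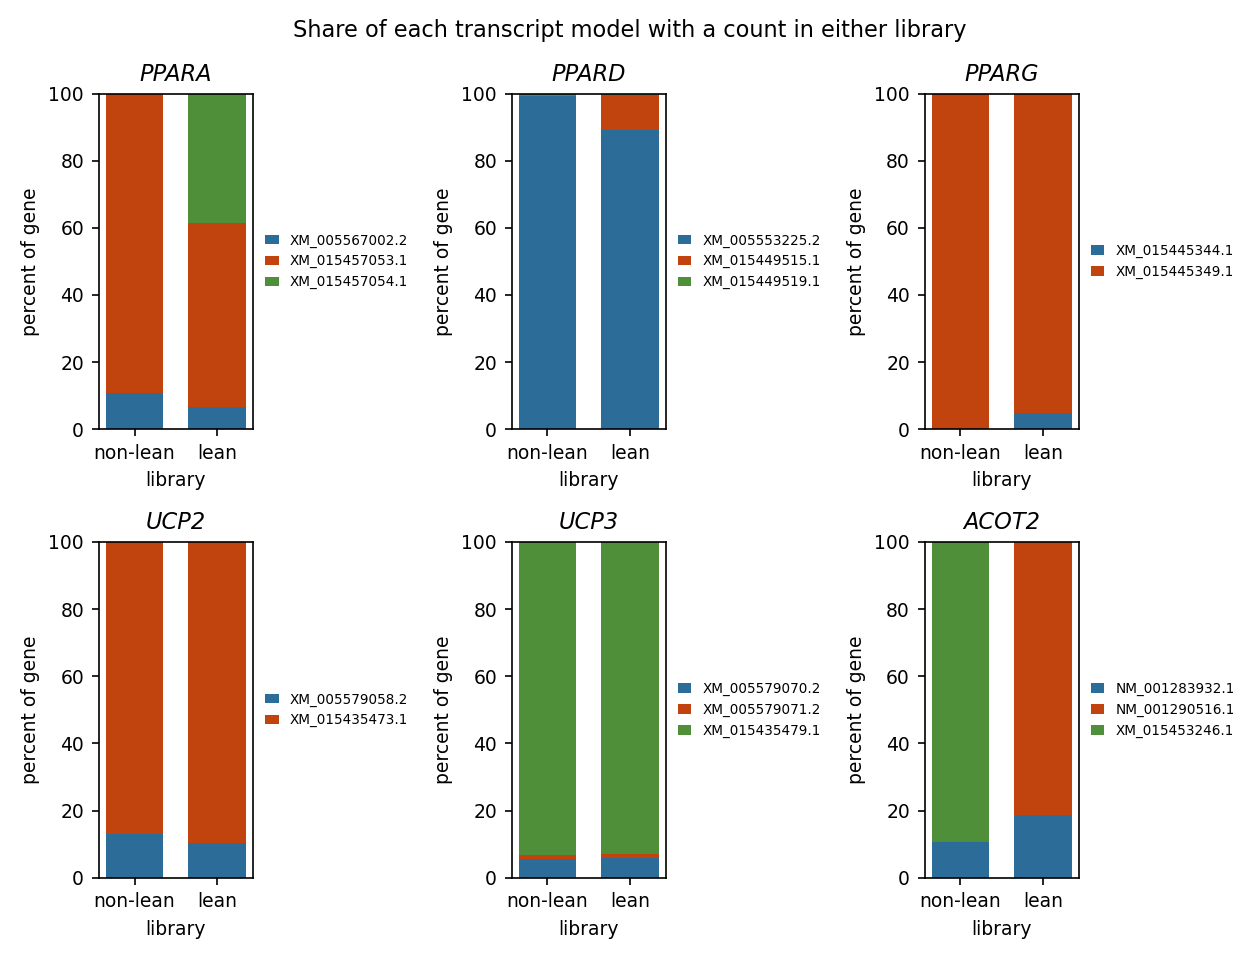
Share of each RefSeq transcript model in the estimated counts of the gene, in percent, for the 6 of the 9 genes with more than 1 model, with the non-lean library left and the lean library right. Models at 0 in both libraries are left out; the bars of UCP2 and UCP3 are nearly alike, while the main model of ACOT2 is a different one in each library.

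The thioesterase list went both ways. In the list of 8 tested genes, 3 intervals lay above 0 and 2 below, and the median was 0.17. THEM4 was lower at -0.92 [-1.14, -0.71]. ACOT8, which acts in peroxisomes, was higher at 0.64 [0.20, 1.09], ACOT7 at 0.58 [0.17, 1.002] and the abundant ACOT13 at 0.35 [0.17, 0.54].

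ANGPTL4 encodes a secreted inhibitor of lipoprotein lipase, the enzyme that frees fatty acids from circulating triglyceride, and is a widely used readout of PPARD activity. It had 3 counts in the non-lean and 6 in the lean library, or 0.224 and 0.394 CPM, and was the only one of the 9 genes under the minimum of 1 CPM. Its log2 ratio of -0.71 had an interval from -3.44 to 1.41, so no difference was detectable at this depth. LPL, the enzyme it inhibits, had 478 counts in the non-lean and 1029 in the lean library and a log2 ratio of -0.92 [-1.08, -0.76].

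The system around LPL was lower or level. Of 9 tested angiopoietin-like and lipase genes, 4 intervals lay below 0 and none above, with a median of -0.57. ANGPTL5 was 6.63-fold lower with 5 counts in the non-lean and 41 in the lean library. At 0.374 CPM in the non-lean and 2.69 CPM in the lean library, it counted as tested only through the lean library. ANGPTL7 was 3.77-fold lower, and the abundant ANGPTL2 was at -0.74 [-0.86, -0.62]. GPIHBP1, which holds LPL at the capillary wall, was at 0.23 [-0.01, 0.47] and LMF1, which matures it, at 0.34 [-0.05, 0.74]. The protease FURIN was at -0.11 [-0.24, 0.01]. With total counts 2 intervals lay above 0, and with a minimum of 5 CPM neither of the 2-fold lower genes was tested and 2 intervals lay below 0. Beside these genes, endothelial markers summed to 496 CPM in the non-lean and 651 CPM in the lean library, with 7 of 12 intervals below 0 and 1 above. Fibroblast markers summed to 529 CPM in the non-lean and 1201 CPM in the lean library, with 9 of 10 intervals below 0, 8 genes at least 2-fold lower and a median of -1.66. The part of both cell types in these values was not tested.

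Coregulators, the proteins that PPARs recruit to activate or silence genes, stayed within 2-fold. Of 18 tested, 8 intervals lay below 0 and 4 above, and the median was -0.12. Among all tested genes 28.8% of intervals lay below 0 and 25.8% above. PPARGC1A (PGC-1alpha), the coactivator of mitochondrial and oxidative genes, had 478 counts in the non-lean and 425 in the lean library, at 0.36 [0.16, 0.55]. LPIN1, which works with PPARGC1A and PPARA in liver of mice, was highest at 0.94 [0.83, 1.05], and PERM1, a muscle regulator of oxidative genes, was at 0.13 [0.06, 0.19]. The acetyltransferase CREBBP was lowest at -0.72 [-0.88, -0.56]. With total counts 5 intervals lay below 0 and 6 above, and LPIN1 passed 2-fold.

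Known oxidative targets of PPARs lay mainly above 0. Of 23 tested, 14 intervals lay above 0 and 2 below, and the median was 0.45. The 5 that were at least 2-fold higher were CPT1B, SLC25A20, ACAA2, ETFDH and ACADM. CPT1B, which commits long-chain fatty acids to mitochondrial oxidation, had 1052 counts in the non-lean and 439 in the lean library, at 1.45 [1.29, 1.61]. The carnitine carrier SLC25A20 had 234 and 102 counts, at 1.38 [1.04, 1.73]. The abundant HADHA and ECH1 were higher at 0.55 [0.47, 0.64] and 0.91 [0.82, 0.99], and ECI2 and HADH were lowest at -0.34 [-0.51, -0.17] and -0.18 [-0.29, -0.07]. PDK4, the pyruvate dehydrogenase kinase often used as a PPAR readout in muscle, had 228 counts in the non-lean and 263 in the lean library and was level, at -0.02 [-0.28, 0.24]. Slow fibre markers, from the fibres richest in oxidative enzymes, had 7 of 9 intervals above 0 and 1 below. They summed to 17399.6 CPM in the non-lean and 10027.9 CPM in the lean library. The 1 below was CASQ2, with 61 counts in the non-lean and 697 in the lean library, at -3.32 [-3.73, -2.95]. MYH7 of that list was not matched by symbol. Fast fibre markers had 10 of 12 intervals below 0 and 2 above. The part of fibre types in the values of the oxidative targets was not tested.

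**Figure D4:**
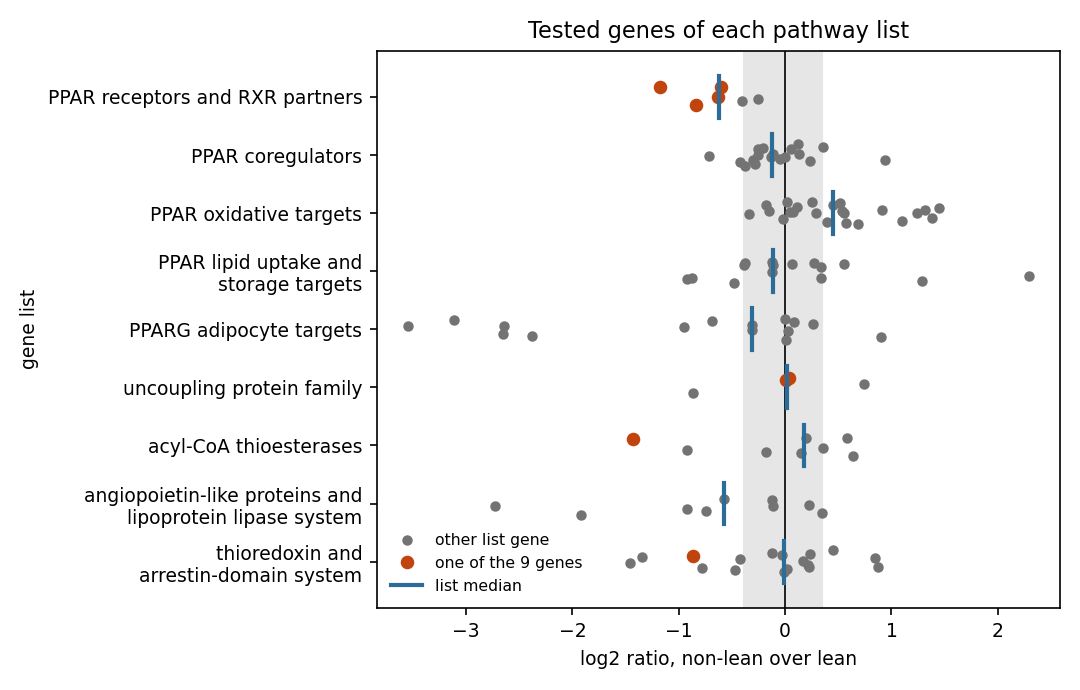
Log2 ratio of non-lean over lean for the tested genes of 9 pathway lists, with each list's median as a vertical bar and the range between the quartiles of all tested genes in grey. The 8 tested genes of this account are in orange; the median of the receptor list lies at -0.62, that of the oxidative targets at 0.45.

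Targets that act in lipid uptake and storage in muscle went both ways, with 6 intervals above 0 and 5 below among 15 tested genes. Their median was -0.11. With total counts 7 intervals lay above 0 and 4 below. The 2 genes at least 2-fold apart, GK and PLIN5, were both higher. ACSL5 and PLIN2 of this list were not matched by symbol. GK, glycerol kinase, had 79 counts in the non-lean and 18 in the lean library, at 2.29 [1.57, 3.15]. PLIN5, a lipid droplet protein that ties droplets to mitochondria, had 108 and 50, at 1.29 [0.80, 1.81]. LPL and VLDLR, which supply fatty acids from lipoproteins, were lowest, VLDLR at -0.87 [-1.02, -0.72]. The abundant FABP3 was level at 0.07 [-0.01, 0.14], and the triglyceride lipase PNPLA2 was higher at 0.27 [0.22, 0.32].

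Adipocyte targets of PPARG held the lowest ratio among the 9 lists. Of 15 tested genes, 8 intervals lay below 0 and 3 above, 5 were at least 2-fold lower and the median was -0.32. The 5 were ADIPOQ, TRARG1, CIDEC, PLIN1 and CIDEA, from -3.55 [-6.08, -2.11] for ADIPOQ to -2.38 [-4.21, -1.12] for CIDEA. Of these, ADIPOQ, TRARG1, CIDEC and CIDEA lay under 1 CPM in the non-lean library. They counted as tested only through the lean library, where they were higher. TRARG1, a regulator of glucose transporter traffic, had 8 counts in the non-lean and 83 in the lean library. The abundant GPD1 and PLIN4 were at 0.03 [-0.02, 0.07] and 0.08 [0.03, 0.14], FABP4 at 0.26 [0.05, 0.47] and the glycerol channel AQP7 at 0.91 [0.50, 1.33]. With a minimum of 5 CPM, 1 of the 5 was tested and counted as lower, and 4 intervals lay below 0. That gene was PLIN1, at 1.72 CPM in the non-lean and 10.9 CPM in the lean library. It passed the higher minimum through the lean library alone. This list shares most of its genes with the adipocyte markers given beside PPARG, so both describe the same genes.

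Taken over all 9 lists, the 107 tested genes beside the 8 had 35 intervals above 0 and 35 below, and a median of 0.01. Of these, 7 genes were at least 2-fold higher (6.54%) and 9 at least 2-fold lower (8.41%), close to the shares among all tested genes. The even split of intervals depended on the scaling. With total counts 49 intervals lay above 0 and 29 below, and the 2-fold numbers were 11 higher and 9 lower.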

How the data were processed

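Per the file headers, the deposited values are expected counts for each RefSeq transcript, estimates that can be fractional. STAR 2.7.8a, RSEM 1.3.3 and Trim Galore 0.6.6 are listed in the submitters' processing notes, with no roles given. Per the labels' protocols, polyadenylated RNA was copied from random hexamers and read on a BGISEQ-500, with no strand-marking step named. The genome build is not given in the sources used here, so no positions are given.

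Gene counts are the rounded sums of their transcripts. The 24 symbols that had become dates were separated by transcript, and 5 listed genes were matched through the RefSeq gene table of T2T-MFA8v1.1, while 5 of 222 were not matched. Libraries were scaled with edgeR 4.0.16 in R 4.3.3, with factors of 1.05 for the non-lean and 0.952 for the lean library. Ratios used a prior count of 0.5 and exact Clopper-Pearson intervals (scipy 1.17.1, Python 3.11.15). This step was run on simulated Poisson counts with known library totals. That checks the calculation only, not the scaling, the division of reads among models or variation between animals. A floor of 3 counts stood in for a library at 0. No test between groups was possible. All 9 genes are named, and of each pathway list the 2 highest, the 2 lowest and the 2 most abundant tested genes, with close paralogs of the 9, LPL, CPT1B, PDK4, PPARGC1A, ARRDC4 and MLXIP; any other gene was named after its values were seen. Genes and lists were chosen with earlier results of these data known. With 2 libraries no genes were named for likeness of pattern. The value of 1 list gene is not reported here, although it counts in its list.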

Additional observations from a re-analysis of the deposited data

How the results depend on the processing

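The 9 ratios were recomputed with total counts, DESeq2 1.42.0 size factors, upper-quartile scaling and a prior count of 5, and for the tested genes relative to genes of like mean CPM. None of the 2-fold calls changed sign or was lost, for RXRA and ACOT2, under these. Total counts moved RXRA to -1.03, UCP3 to 0.15 and TXNIP to -0.72, beyond their counting intervals, and gave 2 of the 8 genes an interval above 0. The leading transcript model alone gave PPARA 0.059 and ACOT2 -6.48, a value set by the floor of 3 counts because that model had 0 in the non-lean library, with a counting interval that reaches up to -6.17. The model that led ACOT2 in the non-lean library ran the other way, with 108.1 estimated counts there and 0 in the lean library. Over all tested genes, 2-fold higher calls numbered 1040 with no minimum and 231 with a minimum of 5 CPM, and 2-fold lower calls 485 with that minimum. Among the other pathway genes, 11 were 2-fold higher with total counts and 3 were 2-fold lower with a minimum of 5 CPM. A correction for protein length was not run, as no protein table was used here. No paired analysis was possible because each group has 1 library, and for the same reason no library could be left out. Depth limits ANGPTL4, PPARA and PPARG most, at 9, 100 and 113 counts over both libraries.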
